A study of Pan troglodytes with 217 samples.

Results

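The 34 genes described here carry the steps from glucose uptake to lactate: glucose transporters, the isozymes of glycolysis, lactate dehydrogenases, lactate and pyruvate carriers, the kinases that inhibit pyruvate dehydrogenase, and the mitochondrial pyruvate carrier. They were chosen by symbol, and all 34 were matched to 1 Ensembl chimpanzee gene identifier each, of 33729 identifiers in the count table. The study derived naive pluripotent stem cells of chimpanzee (Pan troglodytes, induced pluripotent lines), let them form blastoids, which are stem cell models of the blastocyst, and sequenced single cells of 4 day blastoids with SMART-seq2, which copies whole transcripts. The question asked of these cells was which embryonic lineages they correspond to. All cells belong to 1 labelled group, cells taken from blastoids made from naive cells. The naive lines had been grown with PD032590, XAV939, Gö6983, LIF, Activin-A, IL6 and the EZH2 inhibitor EPZ-6438, so every cell shares that history. No label gives the cell's line, blastoid or plate, and there is no embryo, untreated or control cell in the table. Most of the mural trophectoderm had been cut away, and mural tissue was dissociated separately and for longer, and which cells came from it was not labelled.

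Cells with at least 8000 detected genes and at least 4000 reads were kept, which removed 24 cells and left 88.9% of the cells, with 1679888 to 25630392 reads each (median 3960860). They fell into 4 clusters: 50 epiblast-like cells, 32 hypoblast-like cells and a pair of trophectoderm-like clusters, 60 cells with low and 51 with high CCR7, a chemokine receptor of polar trophectoderm. Summed markers were highest in the class that bears their name. The clusters had been named by their scores on these same lists, so that order gives no support to the names. The 8 matched epiblast markers summed to 2670 reads per 1000000 reads (CPM) in epiblast-like cells against 603 in hypoblast-like and 134.5 in trophectoderm-like cells. Hypoblast markers summed to 1596 CPM in hypoblast-like cells while epiblast-like cells had 53.5 and trophectoderm-like cells 110.04 CPM. Trophectoderm markers summed to 6109 CPM in trophectoderm-like cells, yet all 12 were above 1 CPM in every class and summed to 1148 and 1202 CPM in the other two. Of the 32 hypoblast-like cells, 22 held at least 3 epiblast markers at a minimum of 10 CPM, 25 held 3 hypoblast markers and 26 held 3 trophectoderm markers. Of the 50 epiblast-like cells 41 also held 3 trophectoderm markers. By their markers, 11 cells lay nearest a list other than that of their class, and leaving them out is one of the alternatives. No cell of any class held 3 of the 5 amnion markers at that level.

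Glycolysis splits a glucose molecule into pyruvate and yields ATP without oxygen. Pyruvate is then either reduced to lactate, which leaves the cell through proton-coupled carriers, or taken into mitochondria and oxidised by pyruvate dehydrogenase. Most steps can be catalysed by several isozymes that are encoded by separate genes and differ in regulation, and mammalian blastocysts are known for a high rate of glucose uptake and lactate release.

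A level is the reads of a gene summed over the cells of a class per 1000000 reads of those cells. Its 95% interval is an exact Poisson interval, and shares have exact Clopper-Pearson intervals. For a share of cells that interval reaches at most 14.8 percentage points to either side in epiblast-like, 18.8 in hypoblast-like and 9.74 in trophectoderm-like cells. Reads had no molecular identifiers, so both cover counting error only, and at this depth the interval of a member at 10 CPM or more was at most 4.55% of the level to either side. The labels do not tell the blastoids apart, so all cells are treated as 1 sample. No difference between classes therefore has a test against animals or cultures, and the spread is given over single cells. A gene counts as higher or lower when its levels differ by at least 2-fold, among the 7789 genes with 10 CPM or more over all kept cells. Of the 34 members 26 reached that minimum and 8 did not: PFKM, PFKFB2, PFKFB3, ENO3, SLC16A3, SLC16A4, PDK2 and PDK4. Levels are reads not divided by transcript length, so a gene is compared with itself between classes and not with another gene.

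The members together took 1.66% of all reads in epiblast-like, 1.91% in hypoblast-like and 2.16% in trophectoderm-like cells. Over single cells their summed level had a lowest, median and highest value of 7712, 15393 and 26181 CPM in epiblast-like cells, 8772, 19344 and 27798 CPM in hypoblast-like cells and 6651, 21626 and 31484 CPM in trophectoderm-like cells. The medians were ordered epiblast-like, hypoblast-like, trophectoderm-like, and the 3 ranges overlapped over most of their width. GAPDH alone gave a large part of the reads. Without it, the summed levels were 12077, 14957 and 15773 CPM in the same order, with 14721 CPM in the CCR7-low cluster, below hypoblast-like cells, and 16888 CPM in the CCR7-high cluster.

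Trophectoderm-like cells had higher levels than epiblast-like cells of 6 members (SLC2A1, SLC2A3, PGM1, PFKP, ENO1 and SLC16A1), 23.1% of the 26, beside 9.74% of all tested genes. Lower were 5 members (PFKL, ALDOC, ENO2, PDK1 and MPC2), 19.2%, beside 13.3% of all genes. Hypoblast-like cells exceeded epiblast-like cells in 4 members (SLC2A1, SLC2A3, PGM1 and ENO1), 15.4% beside 4.99%, and were below them in 4 (ALDOC, ENO2, PDK1 and MPC2), 15.4% beside 8.28%. Both comparisons share the epiblast-like cells. Between trophectoderm-like and hypoblast-like cells, 2 members were higher in the former (PFKP and PFKFB4), 7.69% beside 9.15%, and 4 were lower (PGM1, ALDOC, PDK1 and MPC2), 15.4% beside 9.31%. Within trophectoderm-like cells, 3 members were higher in the CCR7-high cluster (ENO2, PDK1 and PDK3), 11.5% beside 5.69%, and 1 was lower (SLC16A1), 3.85% beside 4.98%. PDK1 and MPC2 met the 10 CPM minimum through epiblast-like and hypoblast-like cells and were under it in trophectoderm-like cells (2.80 and 5.35 CPM). They were thus bound to be lower there, and the counts of lower members in trophectoderm-like cells give no support beyond their values. PDK1 was at 1.10 and 4.61 CPM in the CCR7 clusters, so the 11.5% includes a member under the minimum in both. ENO2 and PDK3 were under it in the CCR7-low cluster only, at 3.90 and 6.60 CPM. With a minimum of 1 CPM, 7 members were higher and 8 lower in trophectoderm-like than in epiblast-like cells, and 4 higher and 7 lower in hypoblast-like than in epiblast-like cells, so the balance of higher and lower members depends on the minimum.

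The median log2 difference of the 26 members was 0.35 for trophectoderm-like minus epiblast-like cells, beside -0.05 over all genes. It was 0.21 beside -0.10 for hypoblast-like minus epiblast-like cells, -0.05 beside 0.04 for trophectoderm-like minus hypoblast-like cells and 0.22 beside 0.05 for the CCR7-high minus the CCR7-low cluster. CPM depends on the abundant genes of a class. Under median-of-ratios scaling, every log2 difference from epiblast-like cells moved up by 0.14 for trophectoderm-like and 0.18 for hypoblast-like cells. The hypoblast-like split of all genes, 389 higher and 645 lower in CPM, then became 518 and 473. For the members it changed from 4 and 4 to 6 and 2: HK2 and PDHA1 joined the higher group, while ALDOC and MPC2 were no longer 2-fold lower. In the trophectoderm-like comparison 759 and 1037 genes became 905 and 881, and the members changed from 6 and 5 to 7 and 4, with PFKFB4 gained and PFKL lost.

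**Figure D1:**
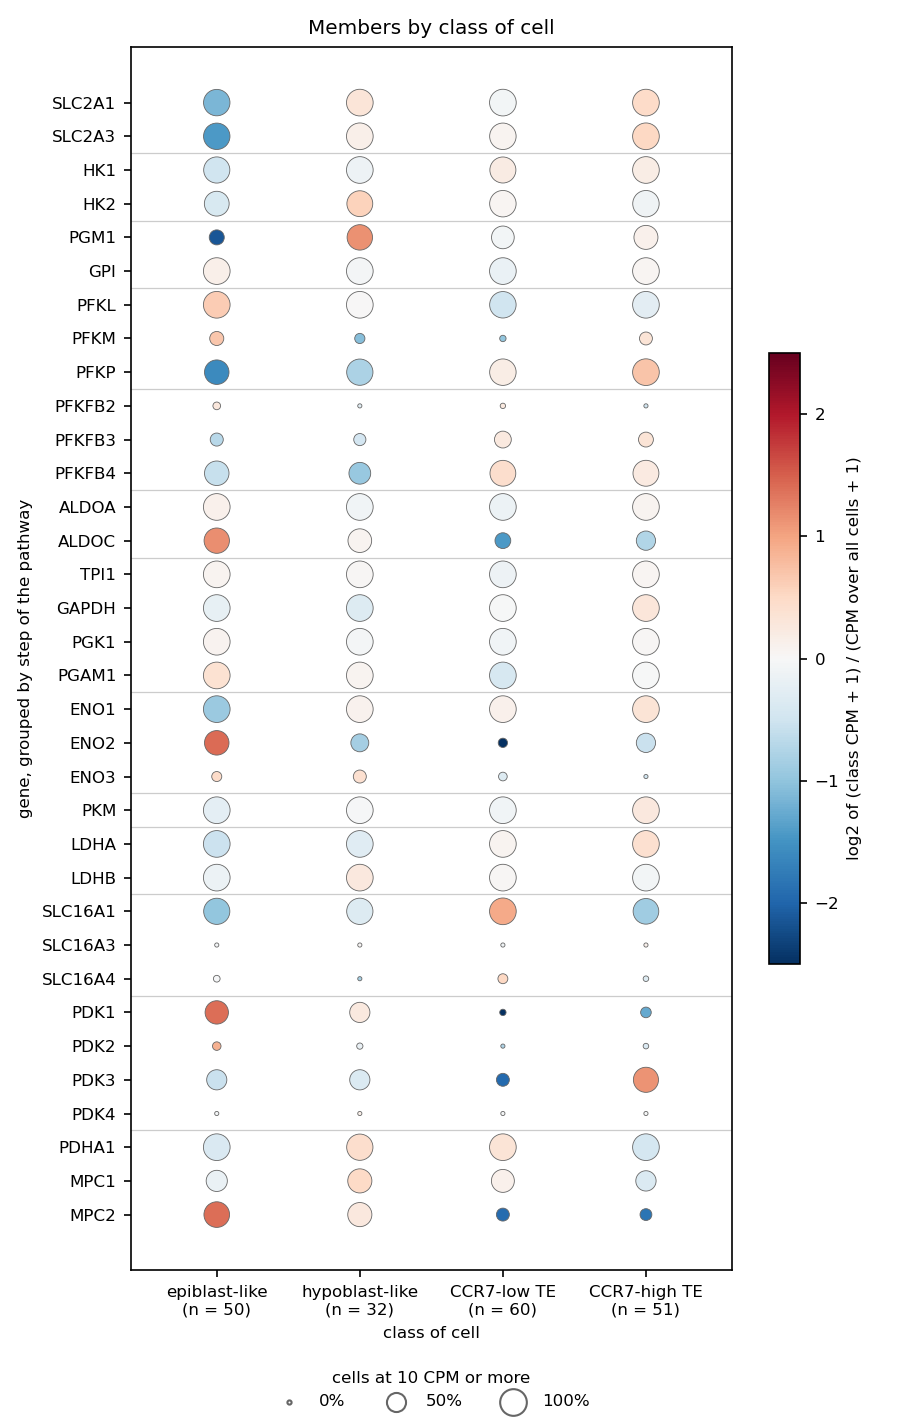
Each circle is 1 of the 34 members in 1 of 4 classes of cells. Colour is the log2 of the class level plus 1 CPM over the level in all kept cells plus 1 CPM, and area grows with the percent of cells at 10 CPM or more. PDK1, ENO2, ALDOC and MPC2 are reddest in the 50 epiblast-like cells, PGM1 in the 32 hypoblast-like cells, SLC16A1 in the CCR7-low and PDK3 in the CCR7-high trophectoderm-like cells.

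**Figure D2:**
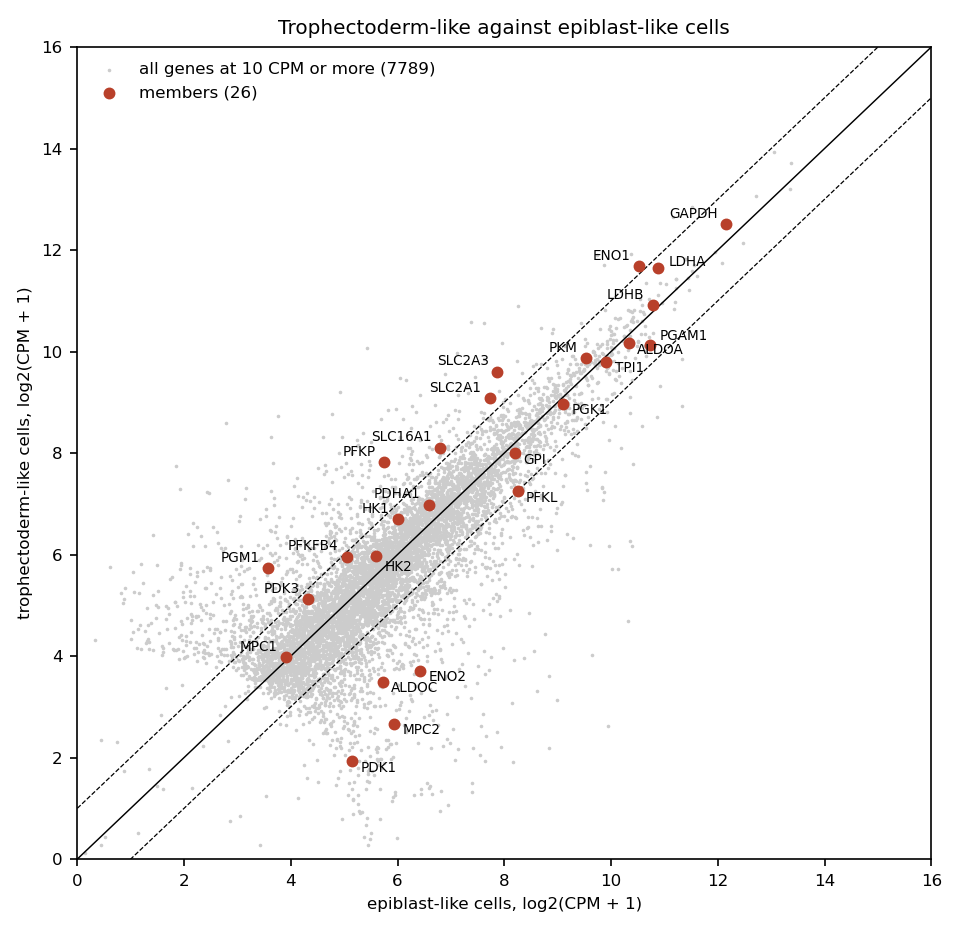
Levels of 7789 genes (grey) and 26 members (red) in epiblast-like cells (x) and trophectoderm-like cells (y), both as log2 of CPM plus 1. The solid line is equality and the dashed lines mark about 2-fold; 6 members lie on or above the upper line, and 5 on or below the lower one.

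Both glucose transporters were lower in epiblast-like cells than in the other classes. SLC2A1 encodes GLUT1, the carrier found in most tissues. Its level was 210.3 CPM (95% interval 208.4 to 212.2) in epiblast-like cells, 583 CPM in hypoblast-like cells and 540.1 CPM (95% interval 538 to 542) in trophectoderm-like cells, a log2 difference of 1.36 for the last against the first. Over cells, the lowest, median and highest values were 0, 175.6 and 839.6 CPM in epiblast-like, 53.4, 429 and 2982 CPM in hypoblast-like and 48.3, 394 and 3177 CPM in trophectoderm-like cells. The ranges overlapped, but 91.9% of trophectoderm-like cells stood above the epiblast-like median. SLC2A3 encodes GLUT3, a high-affinity carrier. It had 232.2 CPM in the epiblast-like class against 701 in the hypoblast-like and 778 in the trophectoderm-like class, 3.02-fold and 3.35-fold above epiblast-like cells. All 32 hypoblast-like cells and 85.6% of trophectoderm-like cells were above the epiblast-like median of 189.8 CPM. One CCR7-low cell reached 9005 CPM, far above that cluster's median of 535 CPM. SLC2A14, a close copy of SLC2A3 with which reads could be shared and which was under the 10 CPM minimum over all cells, ran the other way, at 18.8, 5.91 and 2.29 CPM. SLC2A1 and SLC2A3 were both lowest in epiblast-like cells, and the SLC2A3 share of the reads of both was 52.5%, 54.6% and 59.04% in epiblast-like, hypoblast-like and trophectoderm-like cells.

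Hexokinases trap glucose in the cell by phosphorylating it, and neither passed 2-fold between classes. HK1, the broadly expressed form, had 63.2, 82.1 and 103.3 CPM in epiblast-like, hypoblast-like and trophectoderm-like cells. HK2, the form that insulin and growth signals induce in other tissues, had 47.4, 93.7 and 61.6 CPM, with the hypoblast-like level just under the limit at a log2 difference of 0.98. The HK1 share of hexokinase reads was therefore lower in hypoblast-like cells, 46.7% (95% interval 46.04 to 47.3%), than in epiblast-like, 57.1% (95% interval 56.5 to 57.8%), and trophectoderm-like cells, 62.6% (95% interval 62.3 to 62.97%). In single cells HK1 held most hexokinase reads in 60%, 50% and 81.98% of epiblast-like, hypoblast-like and trophectoderm-like cells.

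PGM1 had the steepest gradient among the early steps. It encodes phosphoglucomutase, which links glycolysis to glycogen. Its level was 10.9 CPM (95% interval 10.5 to 11.3) in epiblast-like, 114.1 CPM (95% interval 112.3 to 115.99) in hypoblast-like and 52.1 CPM (95% interval 51.5 to 52.7) in trophectoderm-like cells. It reached 10 CPM in 30%, 90.6% and 75.7% of their cells, and median values over cells were 2.03, 86.1 and 28.4 CPM. With every cell thinned to 2532312 reads, PGM1 was detected in 26 of the 48 epiblast-like cells that were deep enough, against 23 of 25 hypoblast-like cells and 94 of 100 in the trophectoderm-like class, so the difference in detection remained at equal depth. Hypoblast-like cells exceeded epiblast-like cells by a log2 difference of 3.39 and trophectoderm-like cells by 2.26. GPI, the isomerase of the next step, differed little, with 294.5, 257.8 and 254.4 CPM.

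The isozymes of phosphofructokinase, the committed step of glycolysis, differed in opposite directions. PFKL, the liver type, was at 303 CPM (95% interval 301 to 306) in epiblast-like cells, 196.9 CPM in hypoblast-like cells and 150.8 CPM (95% interval 149.7 to 151.8) in trophectoderm-like cells. That log2 difference of -1.01 lay at the 2-fold limit and fell just short of it under some settings, yet all but 1 of the trophectoderm-like cells were below the epiblast-like median of 291.1 CPM. PFKP, the platelet type, was at 52.9 CPM (95% interval 51.96 to 53.9), 92.8 CPM (95% interval 91.1 to 94.4) and 225.1 CPM (95% interval 223.9 to 226.4) in the same order. Its lowest, median and highest values over cells were 0, 43.96 and 260.4 CPM in epiblast-like, 6.32, 75.2 and 265.3 CPM in hypoblast-like and 0, 202.1 and 645 CPM in trophectoderm-like cells. The ranges overlapped, and 97.3% of trophectoderm-like cells exceeded the epiblast-like median. PFKM, the muscle type, stayed under the 10 CPM minimum over all cells, at 7.77, 1.62 and 3.78 CPM.

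The mix of phosphofructokinase reads therefore differed between classes. PFKP made up 14.5% (95% interval 14.3 to 14.8%) of the family's reads in epiblast-like cells, 31.9% (95% interval 31.4 to 32.3%) in hypoblast-like cells and 59.3% (95% interval 59.1 to 59.5%) in trophectoderm-like cells. PFKL made up 83.3%, 67.6% and 39.7%. PFKP held most of the reads in 0%, 6.25% and 74.8% of cells. The CCR7-low and CCR7-high clusters were alike in this respect, with PFKP shares of 56.8% and 61.3%. Because lengths were not used, these shares compare classes and do not say which enzyme is more abundant in a cell.

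PFKFB enzymes make and degrade the metabolite that activates phosphofructokinase. PFKFB4 was at 32.1 CPM (95% interval 31.4 to 32.9), 24.6 CPM (95% interval 23.7 to 25.5) and 61.2 CPM (95% interval 60.5 to 61.8) in epiblast-like, hypoblast-like and trophectoderm-like cells, a log2 difference of 1.31 between the last and hypoblast-like cells. It stood at 10 CPM or more in 84%, 65.6% and 93.7% of cells. PFKFB3 had 5.08, 6.21 and 11.1 CPM and PFKFB2 at most 1.84 CPM in any of the 3. The PFKFB4 share of the family's reads was 82.3%, 77.5% and 83.2%, so the mix differed far less between classes than that of phosphofructokinase itself.

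Most enzymes of the lower part of glycolysis were within 2-fold everywhere. ALDOA, the main aldolase, had 1287, 1103 and 1145 CPM in epiblast-like, hypoblast-like and trophectoderm-like cells. Triosephosphate isomerase, TPI1, had 964, 939 and 890.4 CPM. Phosphoglycerate kinase, PGK1, which makes the first ATP of the pathway, had 547, 493 and 502 CPM. These 3 genes had log2 differences between -0.22 and 0.05 in the comparisons of the 3 classes. GAPDH, the dehydrogenase often used as a reference gene, was not level: it had 4567, 4172 and 5840.1 CPM, and 75.7% of trophectoderm-like cells were above the hypoblast-like median. PGAM1, the mutase of the following step, ran the other way with 1688, 1355 and 1125 CPM, and 5.41% of trophectoderm-like cells exceeded the epiblast-like median. PKM, the last enzyme, had 736, 859 and 931 CPM; gene counts cannot separate its splice forms. GAPDH, PGAM1, ENO1, PGK1 and LDHA have near-identical pseudogene copies in primate genomes, and how shared reads were assigned was not tested.

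Aldolase C and enolase 2, forms best known from brain, were highest in epiblast-like cells. ALDOC was at 51.7 CPM (95% interval 50.7 to 52.7), 23.8 CPM (95% interval 22.9 to 24.6) and 10.3 CPM (95% interval 10.02 to 10.6), with 10 CPM or more in 90%, 78.1% and 41.4% of cells. ENO2 was at 84.8 CPM (95% interval 83.6 to 86.03), 16.7 CPM (95% interval 15.98 to 17.4) and 12.1 CPM (95% interval 11.8 to 12.4). Its lowest, median and highest values were 0, 63.6 and 278.1 CPM in epiblast-like, 0, 8.76 and 138.1 CPM in hypoblast-like and 0, 1.91 and 223.3 CPM in trophectoderm-like cells. The ranges overlapped, and 4 trophectoderm-like cells and 9.38% of hypoblast-like cells passed the epiblast-like median. ENO1, the widespread enolase, showed the reverse: 1473 CPM (95% interval 1468 to 1479), 3041 CPM (95% interval 3031 to 3050.4) and 3303 CPM (95% interval 3298 to 3308). Among trophectoderm-like cells 95.5%, and among hypoblast-like cells 96.9%, exceeded the epiblast-like median of 1139.6 CPM. ENO2 therefore took 5.42% (95% interval 5.35 to 5.50%) of enolase reads in epiblast-like cells against 0.545% and 0.364% elsewhere, and ALDOC 3.86% of aldolase reads against 2.11% and 0.891%. ENO3, the muscle enolase, had at most 5.14 CPM in these 3 classes.

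**Figure D3:**
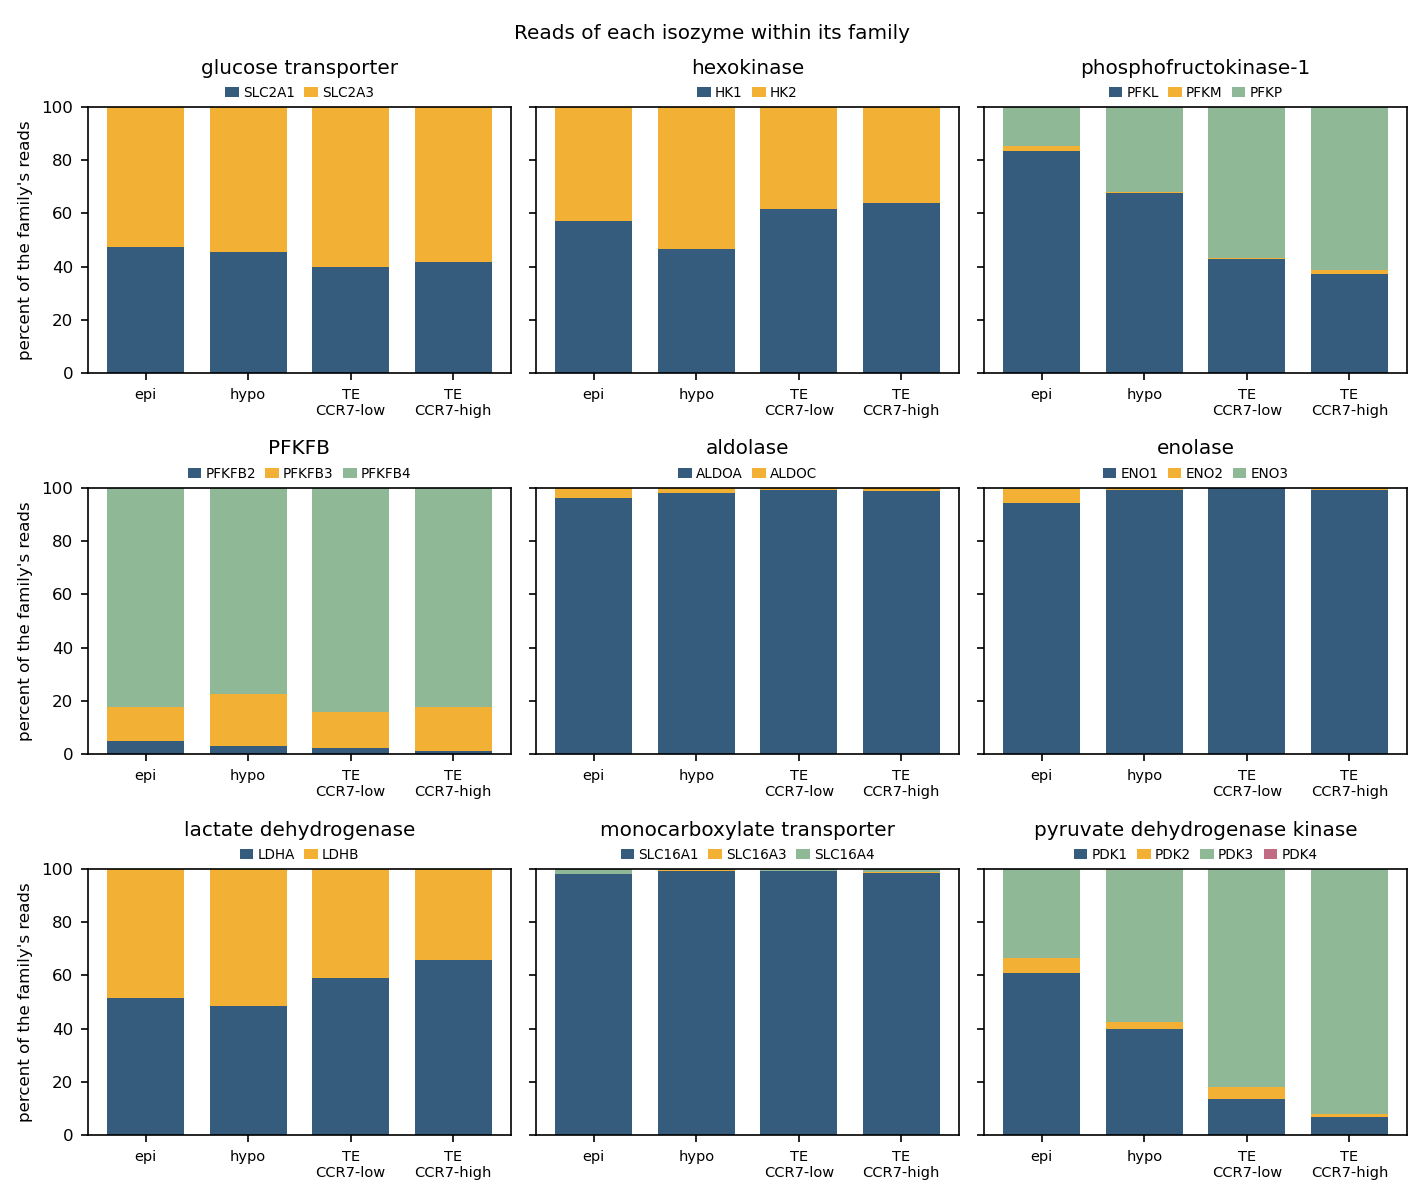
Each bar gives the percent of a family's reads that fell on each isozyme in epiblast-like, hypoblast-like, CCR7-low and CCR7-high trophectoderm-like cells, for 9 families. The PFKP share goes from 14.5% to 61.3% and the PDK1 share from 60.7% to 6.78%, whereas the PFKFB shares were similar in all 4.

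Lactate dehydrogenase interconverts pyruvate and lactate, and its subunits are encoded by LDHA and LDHB. LDHA was at 1879, 2199 and 3215 CPM in epiblast-like, hypoblast-like and trophectoderm-like cells, and LDHB at 1761, 2338 and 1933 CPM. Neither passed 2-fold, but the balance differed: LDHA made up 51.6% (95% interval 51.5 to 51.7%), 48.5% (95% interval 48.3 to 48.6%) and 62.5% (95% interval 62.4 to 62.5%) of the reads of both. It held most of them in 60%, 40.6% and 87.4% of cells. Within trophectoderm-like cells the LDHA share was 59.003% in the CCR7-low and 65.7% in the CCR7-high cluster.

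SLC16A1 encodes MCT1, which carries lactate and pyruvate with a proton. Among members at 10 CPM or more over all cells, only SLC16A1 was lower in the CCR7-high than in the CCR7-low cluster by 2-fold. Its level was 109.8 CPM (95% interval 108.4 to 111.2) in epiblast-like, 171.2 CPM (95% interval 168.9 to 173.5) in hypoblast-like, 423 CPM (95% interval 420.4 to 425) in CCR7-low and 118.1 CPM (95% interval 116.7 to 119.4) in CCR7-high cells. Lowest, median and highest values over cells were 18.5, 344 and 1902 CPM in the CCR7-low and 0, 106.7 and 435 CPM in the CCR7-high cluster. A single CCR7-high cell of 51 exceeded the CCR7-low median, although the ranges overlapped. The pooled trophectoderm-like level of 274.9 CPM thus averages unlike clusters, and the CCR7-high level was near the epiblast-like one. SLC16A3 encodes MCT4, the lactate exporter of strongly glycolytic tissue. It stayed at 0.363, 0.443 and 0.424 CPM in the 3 classes, with no cell at 10 CPM. SLC16A4, an orphan carrier, had at most 3.43 CPM in any cluster. SLC16A1 accordingly held 97.9% to 99.3% of the reads of these 3 carriers in each of the 3 classes.

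The pyruvate dehydrogenase kinases switch pyruvate dehydrogenase off, and their mix differed between classes as much as that of phosphofructokinase. PDK1 was at 34.6 CPM (95% interval 33.8 to 35.3), 15.1 CPM (95% interval 14.5 to 15.8) and 2.80 CPM (95% interval 2.66 to 2.95) in epiblast-like, hypoblast-like and trophectoderm-like cells. Over cells its lowest, median and highest values were 0, 26.2 and 142.5 CPM in epiblast-like, 0, 11.9 and 105.4 CPM in hypoblast-like and 0, 0 and 31.03 CPM in trophectoderm-like cells. It was at 10 CPM or more in 76%, 56.2% and 8.11% of cells. At equal depth PDK1 was detected in 45 of 48, 20 of 25 and 38 of 100 cells. PDK3 set the trophectoderm-like clusters apart: its level was 6.60 CPM (95% interval 6.29 to 6.91) in CCR7-low and 62.6 CPM (95% interval 61.6 to 63.5) in CCR7-high cells, a log2 difference of 3.25, and 96.1% of CCR7-high cells were above the CCR7-low median. Epiblast-like and hypoblast-like cells lay between, at 19.04 and 21.8 CPM. PDK1 (1.10 and 4.61 CPM) and ENO2 (3.90 and 20.7 CPM) were also higher in CCR7-high than in CCR7-low cells. PDK1 was under 10 CPM in both clusters and ENO2 in the CCR7-low cluster.

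Of the reads of the 4 kinases, PDK1 took 60.7% (95% interval 59.8 to 61.6%), 39.7% (95% interval 38.3 to 41.1%) and 7.54% (95% interval 7.17 to 7.93%) and PDK3 took 33.5%, 57.2% and 90.9% in the 3 classes. In hypoblast-like cells these shares varied with the setting: PDK1 took 28.7% and PDK3 68.4% without the 11 cells nearest another marker list, and PDK3 took 42.5% with medians over cells. PDK3 held most kinase reads in 25%, 46.9% and 85.2% of the cells that had any. PDK2 reached at most 3.31 CPM and PDK4, a kinase linked to fasting, at most 0.148 CPM in a class. PDHA1, the catalytic subunit that these kinases phosphorylate, was at 94.7, 169.5, 158.1 and 91.1 CPM in epiblast-like, hypoblast-like, CCR7-low and CCR7-high cells. In CPM it was within 2-fold in every comparison, with 7.84% of CCR7-high cells above the CCR7-low median.

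The mitochondrial pyruvate carrier is a dimer of MPC1 and MPC2 in most tissues. MPC2 was at 60.3 CPM (95% interval 59.3 to 61.4) in epiblast-like, 26.9 CPM (95% interval 25.98 to 27.8) in hypoblast-like and 5.35 CPM (95% interval 5.16 to 5.56) in trophectoderm-like cells, where no cell reached the epiblast-like median of 63.8 CPM. Lowest, median and highest values were 0, 63.8 and 138.4 CPM in epiblast-like, 3.80, 19.2 and 93.6 CPM in hypoblast-like and 0, 2.87 and 44.9 CPM in trophectoderm-like cells, with overlapping ranges. The clusters of trophectoderm-like cells were alike, at 5.18 and 5.54 CPM. MPC1 did not follow its partner: 13.99 CPM (95% interval 13.5 to 14.5), 22.6 CPM (95% interval 21.8 to 23.4) and 14.7 CPM (95% interval 14.4 to 15.1). A log2 difference of -3.49 for MPC2 thus stood beside one of 0.08 for MPC1.

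ALDOC, ENO2, PDK1 and MPC2 were highest in epiblast-like cells, intermediate in hypoblast-like and lowest in pooled trophectoderm-like cells, the order in which the summed epiblast markers also ran (2670, 603 and 134.5 CPM). For ENO2 the last step came from the CCR7-low cluster (3.90 CPM), since the CCR7-high cluster (20.7 CPM) was above hypoblast-like cells (16.7 CPM). The part of epiblast signature in the hypoblast-like values was not tested. Over the alternative settings that gave a value, the hypoblast-like minus epiblast-like log2 difference lay between -1.73 and -0.99 for MPC2, between -1.72 and -1.01 for PDK1 and between -1.21 and -0.94 for ALDOC. ENO2 was lower by more than 2-fold under each of them. Beside the CCR7 comparison, the clusters also differed in median reads (3693060 in CCR7-low and 4516220 in CCR7-high cells), in median detected genes (10738.5 and 11528) and in mitochondrial reads (3.12% and 2.65%). With every cell thinned to the same number of reads, and with mitochondrial reads left out of the total, ENO2, PDK1 and PDK3 were again higher and SLC16A1 lower by at least 2-fold in CCR7-high cells. The part of detected genes was not tested. Mural and polar origin, with its separate dissociation, cannot be told apart from the cluster, since the cells carry no such label.

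**Figure D4:**
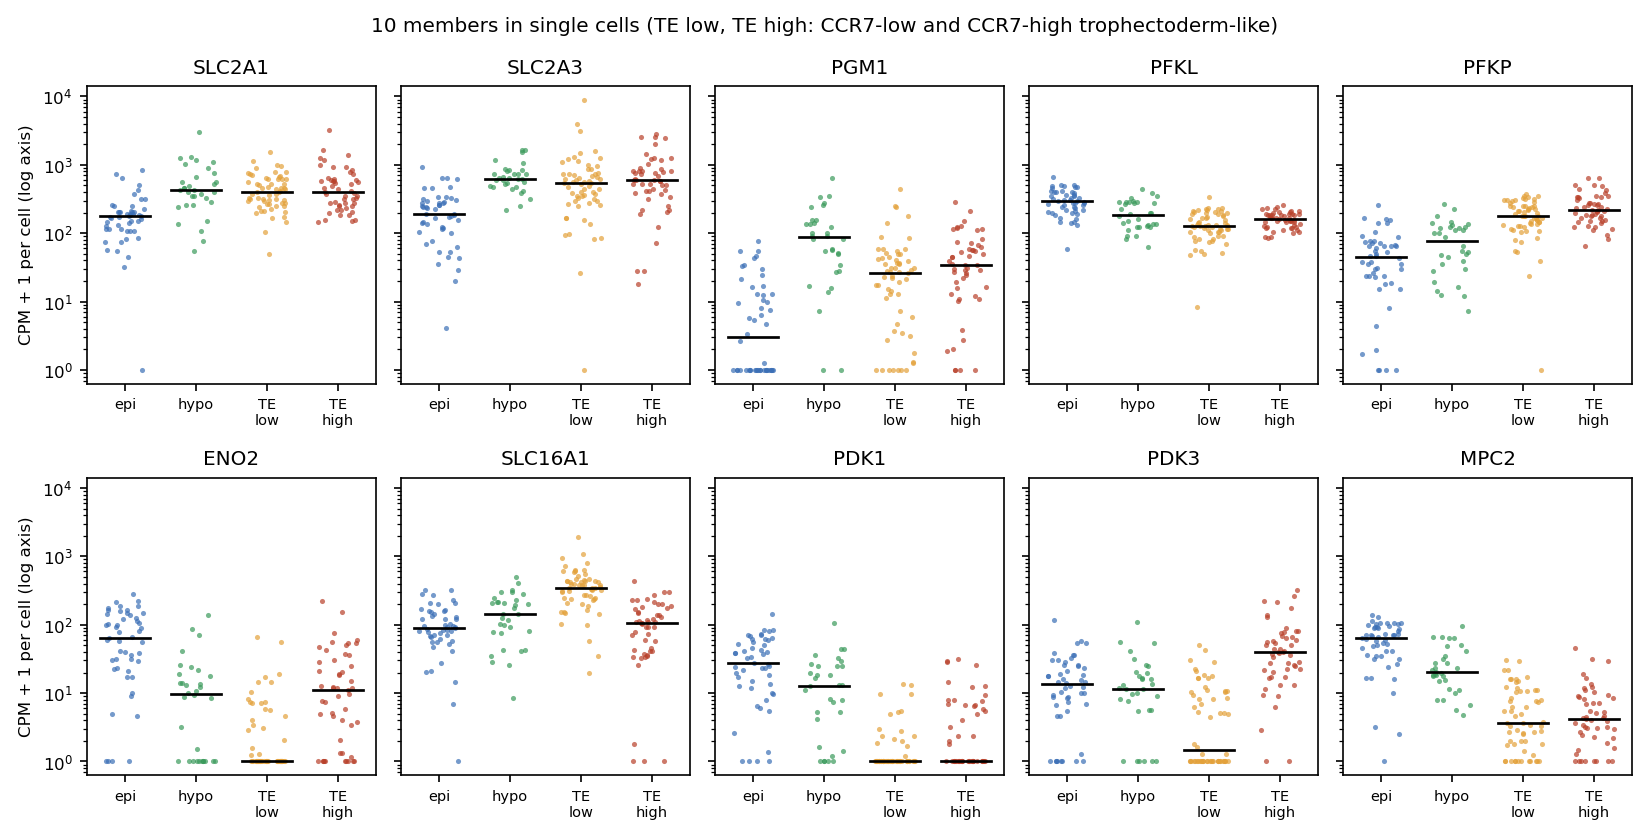
Each point is 1 cell, plotted as CPM plus 1 on a log axis for 10 members, with a black bar at the median of epiblast-like (epi), hypoblast-like (hypo), CCR7-low (TE low) and CCR7-high (TE high) trophectoderm-like cells. SLC16A1 and PDK3 separate TE low from TE high, with medians of 344 and 106.7 CPM for SLC16A1 and 0.463 and 39.2 CPM for PDK3, while MPC2 separates both from epiblast-like cells.

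Across cells of a class, part of the members varied together. After thinning to 2532312 reads, the median Spearman correlation over the 325 pairs of the 26 members was 0.07 across 48 epiblast-like, 0.13 across 25 hypoblast-like and 0.08 across 100 trophectoderm-like cells. The members' correlations with all 7789 genes had medians of 0.02, 0.03 and 0.03. These points are cells treated as 1 sample, and CPM values are not independent of each other, so the correlations are descriptions. The highest pairs in trophectoderm-like cells were GAPDH with ENO1 (0.80) and TPI1 with PGK1 (0.76), in epiblast-like cells PGAM1 with LDHA (0.76) and in hypoblast-like cells PGK1 with ENO1 (0.78). All join enzymes below phosphofructokinase, which are also abundant transcripts with little counting noise. The most opposed pair in trophectoderm-like cells was SLC16A1 with PDK3 (-0.59), genes that differ between the CCR7 clusters. Within the CCR7-low and CCR7-high clusters, over 54 and 46 cells, that correlation was -0.27 and -0.29. In CCR7-low cells the most opposed pair was SLC2A1 with GAPDH (-0.61) and in hypoblast-like cells PGM1 with PFKFB4 (-0.64). In epiblast-like cells it was ENO1 with MPC2 (-0.55). The median correlation of the glucose transporter SLC2A1 with the other members was -0.02 in trophectoderm-like cells against 0.26 for GAPDH. It was 0.29 against 0.19 across the 25 hypoblast-like cells and 0.07 for both genes in epiblast-like cells. Both values of 0.07 are the correlation of SLC2A1 with GAPDH. For SLC2A3 the median was -0.03, 0.04 and -0.0004 in epiblast-like, hypoblast-like and trophectoderm-like cells. No spread is given for these medians.

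**Figure D5:**
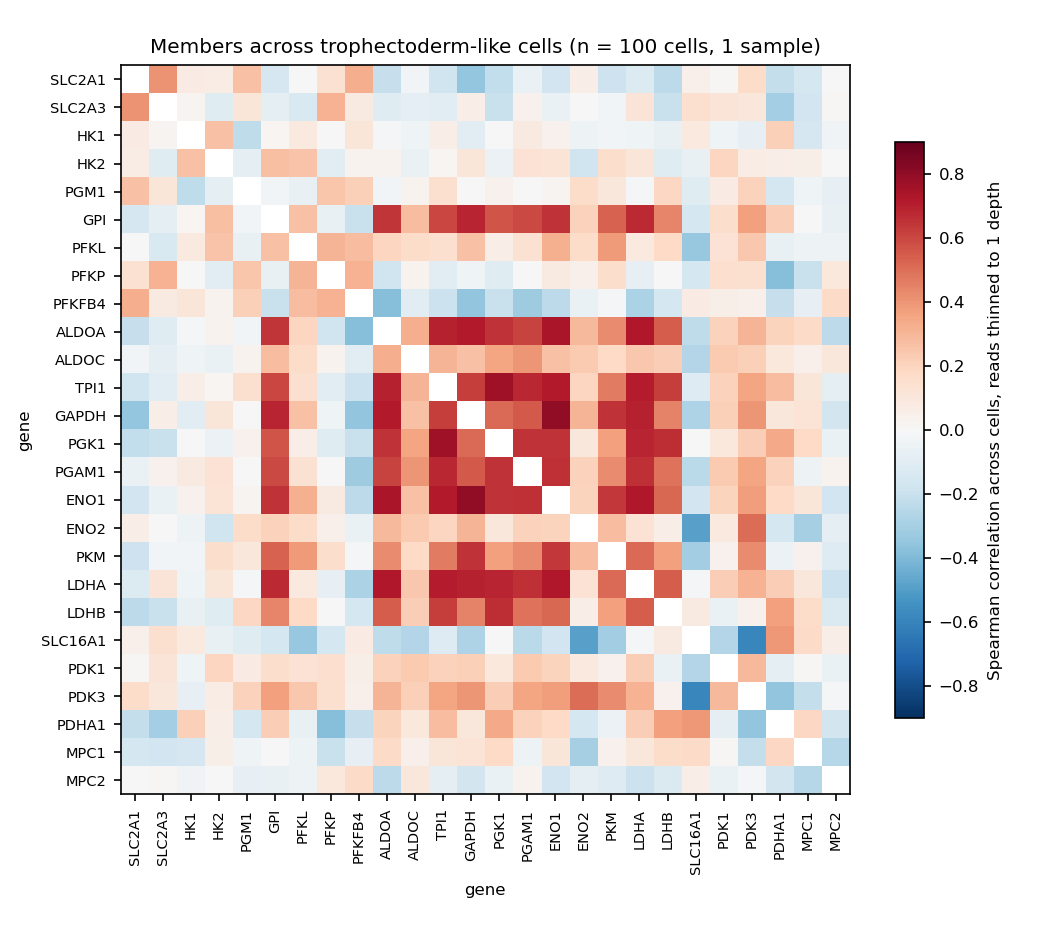
Spearman correlations between 26 members across 100 trophectoderm-like cells, with reads thinned to 2532312 per cell. A red block joins GPI, ALDOA, TPI1, GAPDH, PGK1, PGAM1, ENO1, PKM, LDHA and LDHB, and the deepest blue square is SLC16A1 with PDK3 (-0.59).

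Neighbouring pathways are described by whole lists, and the genes named from each are mainly those with the largest ratio between classes, so they do not stand for their list. Of all tested genes 9.74% were higher and 13.3% lower in trophectoderm-like than in epiblast-like cells, with a median log2 difference of -0.05. Of the other isozymes and carriers of the same steps, 10 of 40 matched genes were tested. In that comparison 3 were higher (SLC16A6, SLC16A9 and TIGAR) and 1 lower (SLC16A10), with a median of 0.38. SLC16A6 and SLC16A9 met the 10 CPM minimum only through trophectoderm-like cells and SLC16A10 only through epiblast-like cells. Their directions were thus fixed by the minimum, and these counts give no support beyond the values. SLC16A9, a carnitine carrier of the MCT family, was at 4.53, 5.75 and 148.3 CPM in epiblast-like, hypoblast-like and trophectoderm-like cells, with 10 CPM or more in 70.3% of trophectoderm-like cells. SLC16A6 was at 1.01, 0.226 and 19.2 CPM, and 36.3 CPM in CCR7-high cells alone. LDHD, which oxidises D-lactate and was under the 10 CPM minimum over all cells, was at 15.1, 3.04 and 0.558 CPM. SLC16A6 and SLC16A9 thus shared with SLC16A1 a higher level in trophectoderm-like than in epiblast-like cells, but not its bias towards the CCR7-low cluster.

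Of 12 tested glycogen genes 1 was higher and 4 were lower in trophectoderm-like than in epiblast-like cells, beside 9.74% and 13.3% of all genes, and the median log2 difference was -0.43. PYGB, a glycogen phosphorylase, was at 576, 497 and 84.2 CPM. UGP2, which makes UDP-glucose from the product of PGM1, was at 2575, 754 and 489 CPM. GYG2, a glycogenin, was highest in hypoblast-like cells like PGM1, at 17.3, 63.1 and 16.4 CPM. PGM1 therefore ran against UGP2 and PYGB between epiblast-like and trophectoderm-like cells.

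Genes around pyruvate dehydrogenase numbered 5 tested of 7 matched, with 0 higher and 1 lower (DLD) in trophectoderm-like than in epiblast-like cells, beside 9.74% and 13.3% of all genes, and a median of -0.75. PDP1, the phosphatase that reverses the kinases, was highest in hypoblast-like cells, at 12.8, 49.9 and 6.52 CPM. The complex subunits DLD and PDHB were at 922, 527 and 391 CPM and at 581, 665 and 345 CPM. In the pentose phosphate and hexosamine list 0 of 11 tested genes were higher and 2 lower, beside the same 9.74% and 13.3%, with a median of -0.44. The lower genes were GFPT1 and GFPT2, which start hexosamine synthesis. GFPT2 met the 10 CPM minimum only through epiblast-like cells, so it was bound to be lower in trophectoderm-like cells. GFPT2 had 47.9, 4.99 and 4.94 CPM, GFPT1 117.8, 57.6 and 39.7 CPM and RPIA, of the pentose branch, 19.9, 35.9 and 26.4 CPM. In the gluconeogenesis and glycerol shuttle list 1 of 9 was higher (GOT1) and 0 were lower, again beside 9.74% and 13.3%, with a median of -0.48. There PCK2 had 16.02, 6.87 and 22.5 CPM, the glycerol phosphate shuttle enzyme GPD2 59.7, 91.1 and 29.97 CPM and the malic enzyme ME1, which was under the 10 CPM minimum over all cells and not tested, 10.6, 3.78 and 5.03 CPM.

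The hypoxia response drives many glycolysis genes in other settings. Of 18 tested genes of this response that are not members, 3 were higher (VEGFA, ADM and ERO1A) and 3 lower (EGLN1, P4HA1 and AK4) in trophectoderm-like than in epiblast-like cells, beside 9.74% and 13.3% of all genes, and the median was 0.03. ADM met the 10 CPM minimum only through trophectoderm-like cells, and EGLN1 and P4HA1 only through the other classes. The directions of these genes were thus fixed by the minimum. In the CCR7-high cluster 5 of the 18 were higher than in the CCR7-low cluster and 2 lower, beside 5.69% and 4.98% of all genes. ADM is among the 5 and met the minimum only through CCR7-high cells, so it was bound to be higher there. ADM, adrenomedullin, was at 1.57 CPM in CCR7-low and 74.8 CPM in CCR7-high cells and at 10 CPM or more in 3 of 60 and 26 of 51 cells. EPAS1, which encodes HIF2A, was under the 10 CPM minimum over all cells and so is not one of the 18; it had 0.979 and 21.4 CPM. P4HA1, a collagen prolyl hydroxylase, was lowest in trophectoderm-like cells, with 85.3, 151.8 and 8.61 CPM in epiblast-like, hypoblast-like and trophectoderm-like cells. Of 10 tested regulators of glycolysis genes 2 were higher (MYC and TXNIP) and 1 lower (MAX) in trophectoderm-like than in epiblast-like cells, beside 9.74% and 13.3% of all genes, with a median of -0.09. TXNIP met the 10 CPM minimum only through trophectoderm-like cells, so its direction was fixed by the minimum. MYC was at 26.98, 20.95 and 96.6 CPM, TXNIP, which restrains glucose uptake, at 9.41, 7.78 and 28.7 CPM (43.5 in the CCR7-low and 12.9 in the CCR7-high cluster, the latter under 2-fold above epiblast-like cells), and ESRRB, which was under the 10 CPM minimum over all cells, at 2.03, 15.6 and 4.33 CPM.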

How the data were processed

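Single cells of chimpanzee blastoids were sequenced by SMART-seq2. The deposited table holds whole-number read counts per gene and cell, which the authors made, per their methods, by trimming with FastP, aligning with STAR to the chimpanzee genome and counting reads per gene in STAR, without molecular identifiers. The labels also list Trim Galore 0.6.6, STAR 2.7.7a and GRCh38 without a role; the identifiers are chimpanzee. The strand setting was not given in the sources used here.

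Identifiers were matched to symbols through a gene name table (18783 symbols). Cells with 4000 reads and 8000 genes were kept, which left more cells than the study gives. Genes read in 20 cells were normalised, log-transformed and clustered (Python 3.11.15, Scanpy 1.11.5, 50 components, 30 neighbours, Leiden 0.10.2 at resolution 1), and clusters were named from fixed markers. No doublet caller was run, since, per the labels, single cells were placed in wells with a capillary. No pair of cells had identical counts. Levels, intervals and shares were computed as stated with SciPy 1.17.1. All cells were treated as 1 sample, so no test was run. Length scaling of isozyme shares had been planned, but transcript lengths were not used here and shares rest on unscaled reads.

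All 34 members are named; of each neighbouring list, the text names the 3 genes with the largest ratio of highest to lowest class among those at 10 CPM or more in a class. SLC2A14, and the genes named in brackets beside a count, were chosen after their values were seen. Members and lists were chosen with earlier results of these data known. Alternatives covered the summary over cells, scaling, mitochondrial reads, thinning, fold and level limits, the cell filter, clustering and cell selection.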

Additional observations from a re-analysis of the deposited data

Results flagged for a closer look

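Signal also came from the 24 cells that the filter on detected genes and reads left out (median 6894 detected genes and 1660770 reads). There the 34 members summed to 10610.1 CPM, with a lowest, median and highest value over cells of 1638, 8740.3 and 19259 CPM, and 32 of 34 members had more than 3 reads. These cells have no class, so their values enter no comparison.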

How the results depend on the processing

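Of 29 member differences past 2-fold, 29 kept their sign and 26 stayed past 2-fold in every alternative that gave a value. The exceptions were PFKL in trophectoderm-like against epiblast-like cells (-0.87 to -1.04 on the log2 scale, under 2-fold with the median over cells and with median-of-ratios scaling) and ALDOC and MPC2 in hypoblast-like against epiblast-like cells (-0.94 and -0.99 with median-of-ratios scaling). Counts of members higher and lower moved with the limits, which admit fewer or more genes by construction. At 1.5-fold, 10 members were higher in trophectoderm-like and 9 in hypoblast-like than in epiblast-like cells, 4 in trophectoderm-like than hypoblast-like cells, and 2 were lower in CCR7-high than CCR7-low cells. At 3-fold the first 3 counts were 3, 2 and 0, with 1 member lower in hypoblast-like than epiblast-like and 2 in trophectoderm-like than hypoblast-like cells. With a 1 CPM minimum, 8 were lower in trophectoderm-like and 7 in hypoblast-like than in epiblast-like cells, 4 higher in trophectoderm-like than hypoblast-like cells, and 5 higher and 3 lower in CCR7-high cells. Median-of-ratios scaling, which moves every hypoblast-like minus epiblast-like log2 difference up by 0.18, left 2 lower in hypoblast-like than epiblast-like cells. An alternative chosen after seeing the data, the median over cells with the 10 CPM minimum also read from that median, tests fewer members. It left 1 lower in trophectoderm-like and 1 in hypoblast-like than in epiblast-like cells, 2 lower in trophectoderm-like than hypoblast-like cells and 1 higher in CCR7-high cells. Summed levels moved by at most 9.44% of their value, most in epiblast-like cells (15072 CPM with median-of-ratios scaling). They ranged from 15072 to 17051 CPM in epiblast-like, 18528 to 19786 CPM in hypoblast-like and 21071 to 22257 CPM in trophectoderm-like cells. Of 1080 isozyme share values under alternatives 502 moved past their counting interval. The shares that moved by more than 10 percentage points were PDK1, PDK3, PFKFB3 and PFKFB4 in hypoblast-like cells and PDK1 and PDK3 in CCR7-low cells, by up to 19.6 points. Clustering without the listed genes gave every cell the same class and state. On UMAP coordinates all but 1 kept their class and 85.6% of trophectoderm-like cells their CCR7 state.

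No replicate was left out, since all cells were treated as 1 sample, and no paired analysis was possible because there is 1 group. Cells without Y-linked reads gave no value, since no cell was under 1 CPM. Length scaling was not run. Per-cell origin is unlabelled, so line, blastoid and dissection cannot be told apart from class.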
